A study of Mus musculus with 12 samples.

Results

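The cathepsins described here are 9 protease genes: Ctsa, Ctsb, Ctsc, Ctsd, Ctsh, Ctsl, Ctss, Ctsw and Ctsz. They were taken by symbol from a deposited table of read counts holding 25899 gene symbols, and all 9 were among the 12622 genes that passed a filter on low counts. Their levels were followed through 12 bulk RNA-seq libraries of intraepithelial lymphocytes (IEL), the lymphocytes that live within the lining of the gut. Lymph node T cells of Themis WT donor mice had been injected into Rag2-/- hosts, which lack their own T and B cells and keep other blood cells and the gut lining. The transferred cells were either conventional CD4 T cells or CD8αβ T cells, and IEL were sorted from the small intestine 1 week later. Each of 4 groups had 3 libraries. CD4 IEL and CD8αα from CD4 came from hosts given CD4 cells, and CD8αβ IEL and CD8αα from CD8αβ from hosts given CD8αβ cells. All 4 groups are labelled WT, and no untransferred or mutant control was among them. The labels give no separate animal for each library, so p-values measure the spread between these samples, which may be technical.

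Most cathepsins are made as inactive precursors, carried to the lysosome by the mannose 6-phosphate route, and activated at acid pH. Most members are cysteine proteases of the papain family, whereas Ctsd is an aspartic protease and Ctsa a serine carboxypeptidase. In cytotoxic lymphocytes the lytic granule is a modified lysosome. There Ctsc, also called dipeptidyl peptidase I, trims the N-terminal dipeptide that keeps granzymes inactive. Ctsw (lymphopain) is a cathepsin of NK cells and CD8 T cells. Ctss and Ctsl are best known from antigen-presenting cells and thymic epithelium, where they cut the invariant chain of MHC class II. Cystatins are natural inhibitors of the cysteine cathepsins.

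Promoter sequence is shown for members because many lysosomal genes, cathepsins among them, carry the CLEAR element bound by TFEB and related factors, whose core is CACGTG. Windows from 250 bases before to 50 after the annotated start were read from RefSeq on GRCm38.p6, the assembly called mm10, for Ctsa, Ctsc, Ctsd, Ctsl, Ctss and Ctsz. Ctsb, Ctsh and Ctsw had no entry. RefSeq starts can differ from the gene spans given with the values, which come from the deposited table. The start used lies inside that span for Ctsa and Ctsd and upstream of it for Ctsl. CACGTG, which reads the same on both strands, was present in 7.15% of all 32851 windows and in those of 3 of the 6 genes, Ctsa, Ctsd and Ctsl. The longer form TCACGTGA was in 0.974% of windows and in those of 2 of the 6 genes. A match describes the letters and not a bound site. The matches are printed 5′ to 3′ on the gene's strand with CACGTG in capitals, with Ctsa on the plus strand and Ctsd and Ctsl on the minus strand:
Ctsa, chr2:164833751-164833776, 12 bases before the start: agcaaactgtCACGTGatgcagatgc
Ctsa, chr2:164833768-164833793, 5 bases after the start: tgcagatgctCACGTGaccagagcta
Ctsd, chr7:142388057-142388077, 245 bases before the start: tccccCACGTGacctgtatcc
Ctsd, chr7:142387910-142387935, 98 bases before the start: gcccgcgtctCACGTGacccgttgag
Ctsl, chr13:64370741-64370766, 236 bases before the start: cgttagaagcCACGTGctgatctaaa

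Ctsc, whose level set the groups apart most evenly in the values that follow, had no CACGTG in its window. The stretch from 250 bases before to 10 after its start lies on the plus strand at chr7:88277835-88278094:
Ctsc: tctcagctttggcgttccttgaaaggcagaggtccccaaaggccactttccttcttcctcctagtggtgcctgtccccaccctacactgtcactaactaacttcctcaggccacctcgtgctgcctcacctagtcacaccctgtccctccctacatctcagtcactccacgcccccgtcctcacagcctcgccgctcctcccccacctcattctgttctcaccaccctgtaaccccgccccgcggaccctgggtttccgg

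Library totals ran from 5618917 to 11068713 counts, and 3 counts, the level that a count of 0 allows, corresponded to 0.271 to 0.534 CPM, the counts scaled to a common library total. Several libraries stood apart from their labels or their group. Cd3e, a chain of the T cell receptor complex, was at 505 to 638 CPM in CD4 IEL and 403 to 574 CPM in CD8αβ IEL. In the libraries labelled CD8αα it was at 3.21 to 12.8 CPM (CD8αα from CD4) and 14.1 to 22.1 CPM (CD8αα from CD8αβ). Of 15 T cell markers, 12 were lower and 3 higher in CD8αα from CD4, and 12 lower and 2 higher in CD8αα from CD8αβ. Over all genes 13.5% and 15.1% were called lower and 15% and 16.1% higher (edgeR adjusted p under 0.05). The 15 include Cd4 and Cd8b1, which the group labels name. Cd3g, another chain of the complex, was higher, at 424 to 464 CPM in CD4 IEL and 1901 to 2347 CPM in CD8αα from CD4. It was 901 to 1001 CPM in CD8αβ IEL and 3293 to 3777 CPM in CD8αα from CD8αβ. All 6 companion libraries held Y-linked transcripts at 233 to 449 CPM, as did replicate 3 of CD8αα from CD4 (363 CPM) and replicate 2 of CD8αα from CD8αβ (321 CPM). The other 4 CD8αα libraries held Xist at 373 to 645 CPM with the Y-linked genes at no more than 1.03 CPM, so each CD8αα group joins libraries of both kinds. Markers of NK and innate lymphoid cells, summed, were 2500.3 to 2677 CPM in CD4 IEL and 7251 to 7948 CPM in CD8αα from CD4, and 2249.9 to 2622 CPM in CD8αβ IEL and 7898 to 10092 CPM in CD8αα from CD8αβ. Among them Fcer1g, a signalling chain of NK and myeloid cells, averaged 18.5 and 1110.0 CPM in the CD4 transfer and 31.5 and 1682 CPM in the CD8αβ transfer. The list did not move as a whole. Of its 16 genes, 7 were higher and 5 lower in CD8αα from CD4, and 6 higher and 4 lower in CD8αα from CD8αβ. Of all genes, 28.5% and 31.2% were called in either direction. Eomes, also in the list, averaged 57.0 CPM in CD8αβ IEL and 0.249 CPM in CD8αα from CD8αβ. Descent of the cells in the CD8αα libraries from the transferred T cells was not tested, and their share in the differences of Ctsc, Ctsw and the other members was not tested. Each such difference is therefore one between libraries as labelled. Results on CD8αα groups are therefore also given for the Y-linked and for the Xist libraries alone. Lastly, replicate 2 of CD8αβ IEL held Siglech, a marker of plasmacytoid dendritic cells, at 284 CPM against 9.28 to 63.6 CPM in the other 11 libraries. Its summed epithelial markers were 1237 CPM against 400.3 and 502 CPM in replicates 1 and 3 of CD8αβ IEL. Summed myeloid markers, Siglech included, were 825 CPM against 460 and 387 CPM. Summed MHC class II genes were 1252 CPM against 474 and 522 CPM. Results that rest on this library are given with and without it.

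In CPM over the scaled library total, the 9 cathepsins together came to 3085 to 3626 CPM in CD4 IEL and 4151 to 4662 CPM in CD8αβ IEL. They came to 4888 to 5121 CPM in CD8αα from CD4 and 5109 to 5224 CPM in CD8αα from CD8αβ, with no overlap between a CD8αα group and its companion. Per kilobase of exon (TPM, a level divided by transcript length, used here only to set genes beside each other), Ctsw and Ctsd were the most abundant members, at 1496 to 2562 TPM and 1170.3 to 1914 TPM over the 12 libraries. Ctsa at 269 to 581, Ctsb at 253 to 482, Ctsc at 164 to 388, Ctss at 199.6 to 469 and Ctsz at 156 to 340.4 TPM formed a middle range. Ctsl at 7.06 to 59.7 TPM and Ctsh at 0.774 to 34.5 TPM were the least abundant.

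In the hosts given CD4 cells, 4 of the 9 cathepsins were higher in CD8αα from CD4 than in CD4 IEL and none was lower, with Ctsc 2.72-fold, Ctsd 1.83-fold, Ctsw 1.66-fold and Ctsa 1.36-fold higher. In the same comparison 28.5% of all genes tested were called in either direction, and 15% were called higher. In the hosts given CD8αβ cells, Ctsc (2.23-fold) and Ctsa (1.58-fold) were higher in CD8αα from CD8αβ than in CD8αβ IEL and Ctsb was 1.38-fold lower, against 31.2% of all genes called in either direction, 16.1% higher and 15.1% lower. The median log2 difference of the 9 genes was 0.44 in the first comparison and -0.16 in the second, against 0.02 and -0.003 for all genes. Without replicate 2 of CD8αβ IEL the second median was 0.081, with 7 of 9 members above 0 in place of 4, and with only the Y-linked CD8αα libraries it was 0.060. A call here means an adjusted p under 0.05 in the quasi-likelihood test of edgeR, where p-values were adjusted by the method of Benjamini and Hochberg across every gene tested. In bulk RNA, fewer cells of a type and less transcript per cell cannot be told apart.

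**Figure D1:**
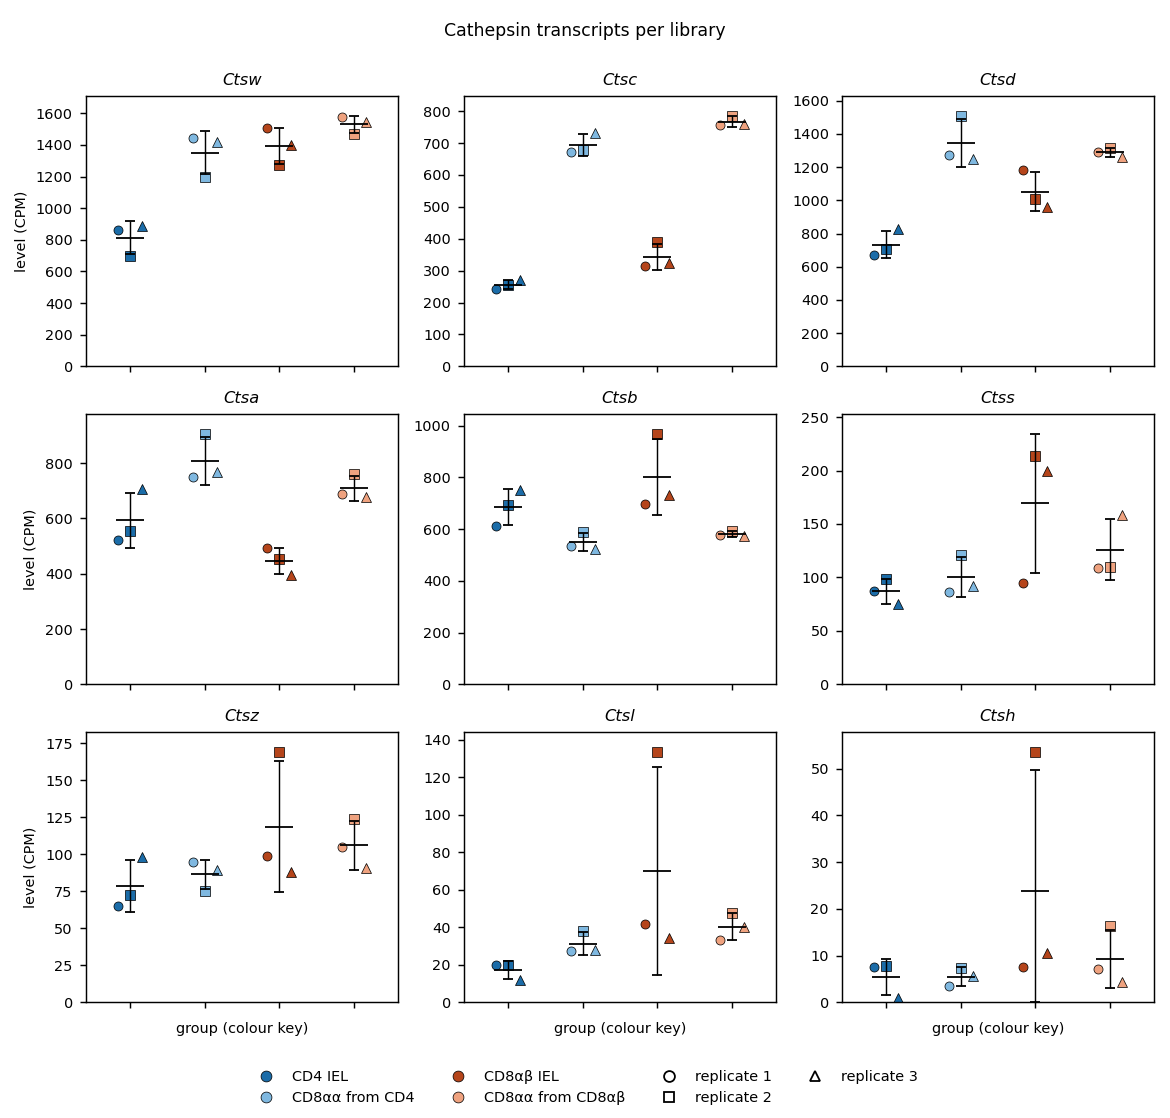
Level of each of the 9 cathepsins in CPM (vertical axes, each from 0) in the 12 libraries, with colour giving the group, shape the replicate number, and bars the mean ± SD of 3 libraries, cut at 0. Ctsc separates all 4 groups without overlap, whereas replicate 2 of CD8αβ IEL (square) stands far above the rest for Ctsl at 134 CPM and Ctsh at 53.6 CPM.

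Ctsc (chr7:88278085-88310888, plus strand, ENSMUSG00000030560) gave the clearest pattern. CD4 IEL held 241, 256 and 269.8 CPM and CD8αβ IEL 315, 389 and 325 CPM. CD8αα from CD4 held 672, 677 and 732 CPM and CD8αα from CD8αβ 756, 786 and 759 CPM. The 4 groups did not overlap, with the order CD8αα from CD8αβ, CD8αα from CD4, CD8αβ IEL, CD4 IEL from high to low. The CD8αα groups were not called different from each other (log2 difference -0.14, edgeR adjusted p = 0.542). Libraries of the CD8αα groups also did not overlap for 28.9% of all genes, and those of the companions for 41.5%. Between CD8αα from CD4 and CD4 IEL the log2 difference was 1.44 ± 0.12 (SE, edgeR adjusted p = 8.61e-07), and between CD8αα from CD8αβ and CD8αβ IEL it was 1.16 ± 0.11 (edgeR adjusted p = 4.49e-06). The change did not differ detectably between transfers (interaction 0.28 on the log2 scale, edgeR adjusted p = 0.375). Among companions, Ctsc was lower in CD4 IEL than in CD8αβ IEL by a log2 difference of -0.43 ± 0.11 (edgeR adjusted p = 0.0134). That call was lost without replicate 2 of CD8αβ IEL (-0.33, edgeR adjusted p = 0.0532).

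With only the single Y-linked library in each CD8αα group, Ctsc was still higher than in CD4 IEL (log2 difference 1.52, edgeR adjusted p = 0.00138) and than in CD8αβ IEL (1.20, edgeR adjusted p = 0.00440), with the lone library assumed to vary like the other groups. With the pair of Xist libraries alone, a subset chosen after seeing the data, the differences were 1.40 (edgeR adjusted p = 2.92e-05) and 1.14 (edgeR adjusted p = 1.08e-04). Ctsc was called in both comparisons under all 20 alternative settings tried, with log2 differences of 1.36 to 1.52 and 1.07 to 1.26.

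Ctsw (chr19:5465240-5468498, minus strand, ENSMUSG00000024910), the lymphocyte cathepsin, was lowest in CD4 IEL, at 861, 695 and 887 CPM. CD8αα from CD4 held 1443, 1195 and 1418 CPM, CD8αβ IEL 1506, 1276 and 1401 CPM, and CD8αα from CD8αβ 1577, 1471 and 1545 CPM. Thus all 3 CD4 IEL libraries lay below the other 9, and the ranges of CD8αβ IEL overlapped those of both CD8αα groups. The log2 difference of CD8αα from CD4 over CD4 IEL was 0.73 ± 0.12 (edgeR adjusted p = 5.94e-04), and that of CD4 IEL under CD8αβ IEL was -0.78 ± 0.12 (edgeR adjusted p = 6.71e-04). Both comparisons share the CD4 IEL libraries. CD8αα from CD8αβ and CD8αβ IEL differed by 0.13 ± 0.12 (edgeR adjusted p = 0.461).

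For Ctsw the test of whether the CD8αα change differed between transfers missed the threshold (0.60 on the log2 scale, edgeR adjusted p = 0.0938), and DESeq2 called it (0.62, DESeq2 adjusted p = 0.0194). It was called in 2 of 19 alternative settings, DESeq2 and edgeR with the replicate number as a block. The higher level in CD8αα from CD4 than in CD4 IEL was kept with the Y-linked library alone (0.80, edgeR adjusted p = 0.0340) and with the Xist libraries alone (0.70, edgeR adjusted p = 0.00651). Over all settings its log2 difference was 0.61 to 0.81.

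Ctsd (chr7:142371148-142388038, minus strand, ENSMUSG00000007891), the aspartic protease of most lysosomes, was second to Ctsw in level per length in every group. CD4 IEL held 668, 709 and 825 CPM and CD8αα from CD4 1276, 1510.1 and 1249 CPM, a log2 difference of 0.87 ± 0.13 (edgeR adjusted p = 1.41e-04) with no overlap. CD8αβ IEL held 1184, 1006 and 962 CPM and CD8αα from CD8αβ 1291, 1315 and 1261 CPM. These also did not overlap, yet the log2 difference of 0.29 ± 0.12 missed the threshold (edgeR adjusted p = 0.0894). The companions differed, with CD4 IEL lower by a log2 difference of -0.52 ± 0.12 (edgeR adjusted p = 0.00787), so the CD8αα groups were close to each other and their companions were not. The interaction for Ctsd was 0.58 (edgeR adjusted p = 0.105), and DESeq2 called it (0.60, DESeq2 adjusted p = 0.0249). In CD8αα from CD4 against CD4 IEL the difference was 0.77 with the Y-linked library alone (edgeR adjusted p = 0.0416) and 0.92 with the Xist libraries alone (edgeR adjusted p = 0.00100).

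Ctsa (chr2:164832873-164841032, plus strand, ENSMUSG00000017760), which besides its peptidase activity protects neuraminidase and β-galactosidase in the lysosome, was the member whose companions ran the other way. CD8αβ IEL were lowest at 492, 452 and 397 CPM, and CD4 IEL held 520.5, 553 and 706 CPM. CD8αα from CD4 held 749, 906 and 766 CPM and CD8αα from CD8αβ 687, 759.7 and 677 CPM. Both CD8αα groups lay above their own companions without overlap. The log2 difference was 0.44 ± 0.14 in the CD4 transfer (edgeR adjusted p = 0.0288) and 0.66 ± 0.14 in the CD8αβ transfer (edgeR adjusted p = 0.00250). CD4 IEL exceeded CD8αβ IEL by 0.41 ± 0.14 (edgeR adjusted p = 0.0424).

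The Ctsa calls were less stable than those of Ctsc. In the CD4 transfer the call was lost in 6 of the 20 settings, among them the Y-linked library alone (0.37, edgeR adjusted p = 0.371) and the Xist libraries alone (0.48, edgeR adjusted p = 0.0641). In the CD8αβ transfer it was lost only with the Y-linked library alone (0.77, edgeR adjusted p = 0.0597) among those settings. Between companions it was lost in 12, including without replicate 2 of CD8αβ IEL (0.41, edgeR adjusted p = 0.0799). Ctsa overlaps the antisense gene Pltp, which held 18465 reads in all against 61601 for Ctsa. The treatment of strand in counting is not given in the sources used here, so reads of the shared stretch cannot be assigned.

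Ctsb (chr14:63122462-63145919, plus strand, ENSMUSG00000021939), a cysteine protease that acts both within proteins and as a carboxypeptidase, had the opposite tendency to Ctsa. CD8αβ IEL held 699, 969 and 733 CPM and CD8αα from CD8αβ 577, 595 and 574 CPM, a log2 difference of -0.46 ± 0.14 (edgeR adjusted p = 0.0188). CD4 IEL held 614, 694 and 752 CPM and CD8αα from CD4 537, 590.4 and 524 CPM, with a log2 difference of -0.32 ± 0.14 (edgeR adjusted p = 0.0956). In both transfers every CD8αα library lay below every companion library. The call in the CD8αβ transfer was lost in 5 of the 20 settings. It was -0.30 without replicate 2 of CD8αβ IEL (edgeR adjusted p = 0.0791), -0.43 with the Y-linked library alone (edgeR adjusted p = 0.342) and -0.47 with the Xist libraries alone (edgeR adjusted p = 0.0610). Ctsb overlaps the antisense gene Fdft1, which held 19930 reads against 63110.

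**Figure D2:**
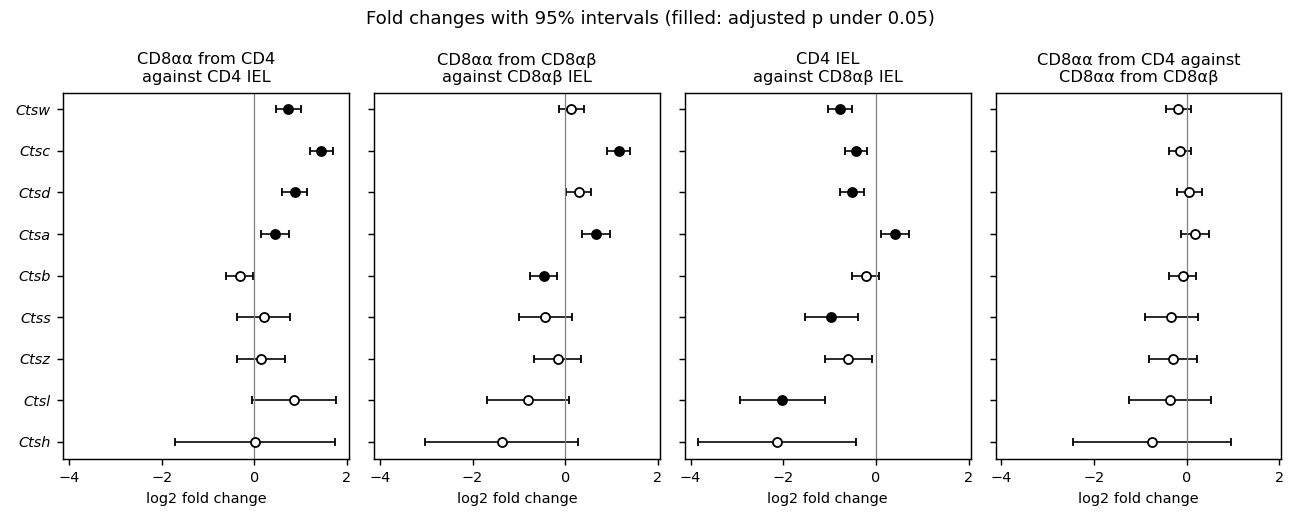
Log2 fold change (horizontal axis) of the 9 cathepsins in the 4 comparisons between groups, 1 panel each, as edgeR estimates with 95% intervals, filled where the adjusted p is under 0.05. Ctsc lies above 0 in both CD8αα comparisons, at 1.44 and 1.16, and no member is filled in the comparison of the CD8αα groups with each other.

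The 4 remaining members are cathepsins of antigen-presenting and epithelial cells more than of lymphocytes. None of them was called in either comparison of CD8αα libraries with companions. For Ctss (chr3:95526786-95556403, plus strand, ENSMUSG00000038642), the main protease of the invariant chain in B cells and dendritic cells, CD4 IEL held 87.4, 98.4 and 75.1 CPM and CD8αα from CD4 86.3, 121 and 92.3 CPM. CD8αβ IEL held 94.6, 214 and 199.7 CPM and CD8αα from CD8αβ 109, 109.7 and 159 CPM. All neighbouring groups overlapped. CD4 IEL against CD8αβ IEL gave -0.96 ± 0.27 on the log2 scale (edgeR adjusted p = 0.0168), although replicate 1 of CD8αβ IEL fell within the CD4 IEL range. Without replicate 2 of CD8αβ IEL that call was lost (-0.76, edgeR adjusted p = 0.0668).

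Ctsl (chr13:64363214-64370306, minus strand, ENSMUSG00000021477), an endopeptidase of lysosomes in many cell types, was at 19.9, 20.1 and 11.8 CPM in CD4 IEL and 42.0, 134 and 34.4 CPM in CD8αβ IEL. The log2 difference was -2.02 ± 0.43 (edgeR adjusted p = 0.00392), and without replicate 2 of CD8αβ IEL it was -1.14 (edgeR adjusted p = 0.00842). So the call was kept and the fold was less, and the groups did not overlap with or without that library. CD8αα from CD4 held 27.5, 38.2 and 28.1 CPM, all above CD4 IEL, with a log2 difference of 0.85 ± 0.42 (95% interval -0.06 to 1.76, edgeR adjusted p = 0.155). Leaving out replicate 2 of CD8αβ IEL, which is in neither of these groups, gave the same 0.85 with an edgeR adjusted p of 0.0157. CD8αα from CD8αβ held 33.5, 47.6 and 40.2 CPM. Its difference from CD8αβ IEL was -0.80 ± 0.41 (edgeR adjusted p = 0.163), and 0.08 without that library.

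Ctsz (chr2:174427493-174439039, minus strand, ENSMUSG00000016256), a carboxypeptidase also called cathepsin X, was at 65.2, 72.8 and 98.3 CPM in CD4 IEL and 94.5, 75.3 and 89.7 CPM in CD8αα from CD4. CD8αβ IEL held 98.8, 169 and 87.9 CPM and CD8αα from CD8αβ 105, 124 and 90.5 CPM. No pair of neighbouring groups was separated and no comparison was called for it. Ctsz overlaps the antisense gene Th1l, which held 8277 reads against 9523. Ctsh (chr9:90054152-90076089, plus strand, ENSMUSG00000032359), an aminopeptidase, was the least abundant, at 7.52, 7.82 and 0.898 CPM in CD4 IEL and 3.41, 7.44 and 5.61 CPM in CD8αα from CD4. CD8αβ IEL held 7.62, 53.6 and 10.5 CPM and CD8αα from CD8αβ 7.10, 16.4 and 4.48 CPM, so 1 library set the mean of its group. The log2 difference of CD4 IEL from CD8αβ IEL was -2.13 ± 0.80 (edgeR adjusted p = 0.0589), and -0.73 without that library (edgeR adjusted p = 0.506).

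Ctsh, Ctsl, Ctsz, Ctss and also Ctsb had their highest library in common with Siglech. Siglech was 284 CPM in replicate 2 of CD8αβ IEL and 46.0 and 55.4 CPM in replicates 1 and 3. Cd74, the invariant chain, was 509 CPM there against 176 and 221 CPM, and the summed epithelial markers 1237 CPM against 400.3 and 502 CPM. The summed myeloid markers were 130 to 308 CPM in CD4 IEL, 1071 to 1301 CPM in CD8αα from CD4, 387 to 825 CPM in CD8αβ IEL and 685 to 858 CPM in CD8αα from CD8αβ. Much of the sum in the CD8αα groups was Itgam and Itgax, integrins that lymphocytes can also carry. Itgam was higher by 4.74 (edgeR adjusted p = 1.70e-06) and 6.21 (edgeR adjusted p = 3.56e-07) on the log2 scale in the CD4 and CD8αβ transfers. Without this pair the sums were 76.2 to 231 CPM in CD4 IEL, 94.7 to 137 CPM in CD8αα from CD4, 264 to 673 CPM in CD8αβ IEL and 118 to 185 CPM in CD8αα from CD8αβ. Of 26 myeloid markers listed for the libraries, 20 were tested. In CD8αα from CD4 2 were higher and 2 lower (median log2 difference -0.84). In CD8αα from CD8αβ 2 were higher and 9 lower (median -1.37). Of all genes 15% and 16.1% were called higher and 13.5% and 15.1% lower in these comparisons. S100a8 and S100a9 were at 0 reads in every library, Lyz2 was at 0 to 21.4 CPM, C1qa at 0 to 3.38 CPM and Csf1r at 7.12 to 28.7 CPM. Summed epithelial markers were 145 to 323 CPM in CD4 IEL and 400.3 to 1237 CPM in CD8αβ IEL. They were 862 to 1159 CPM and 800.0 to 1494 CPM in the CD8αα groups of the CD4 and CD8αβ transfers. Of 24 epithelial genes tested, 3 were higher and 21 not called in CD8αα from CD4 (median log2 difference 1.06). In CD8αα from CD8αβ 5 were higher and 19 not called (median -0.205). These counts stand beside the 15% and 16.1% of all genes called higher, with all-gene medians of 0.02 and -0.003. In CD4 IEL and CD8αα from CD4, Cdh17 averaged 5.61 and 246 CPM, Cdh1 76.5 and 275 CPM, and Epcam 4.89 and 100.3 CPM. These were the 3 genes called there and held much of the rise in the sum. The part of these markers' cells in the levels of Ctsb, Ctss, Ctsl, Ctsz and Ctsh was not tested.

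**Figure D3:**
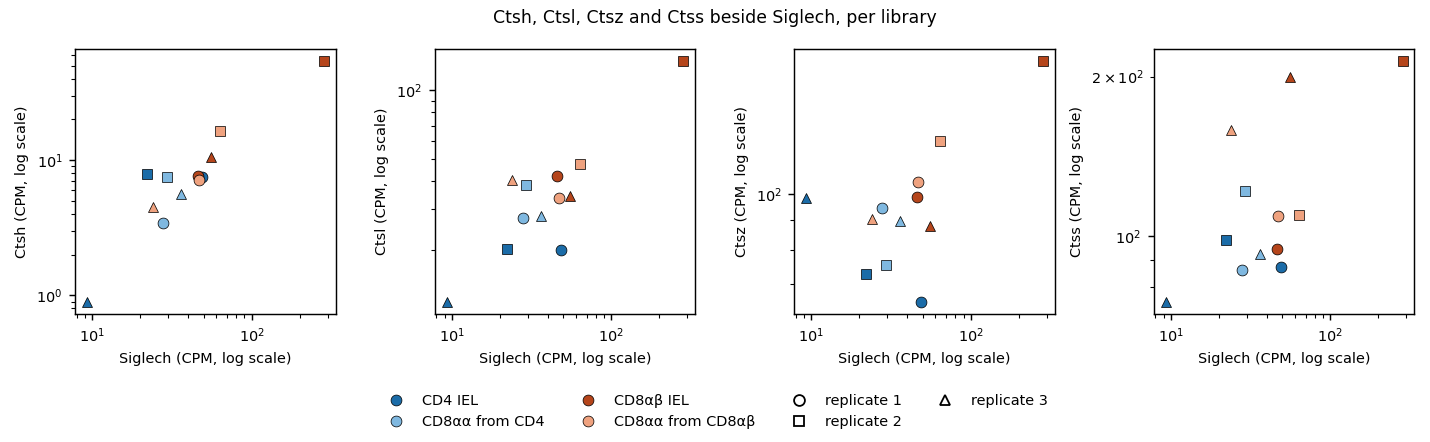
CPM of Ctsh, Ctsl, Ctsz and Ctss (vertical axes, log scale) against CPM of Siglech (horizontal axis, log scale) in the 12 libraries, coloured by group. The library at 284 CPM Siglech, replicate 2 of CD8αβ IEL, has the highest Ctsh at 53.6 CPM and the highest Ctsl at 134 CPM.

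Between the companions, 6 of the 9 members were called, Ctsa higher and Ctsw, Ctsd, Ctsc, Ctsl and Ctss lower in CD4 IEL than in CD8αβ IEL. Of all genes tested 29% were called in either direction there, 12.9% higher and 16% lower. The members' median log2 difference was -0.59 against 0.01 for all genes. Scaling by library totals alone would raise the median of all genes from 0.01 to 0.13 and turn the split of calls over all genes from 1630 higher and 2025 lower to 2309 higher and 1724 lower. Without replicate 2 of CD8αβ IEL 3 members were called, Ctsw (-0.84, edgeR adjusted p = 8.19e-04), Ctsd (-0.55, edgeR adjusted p = 0.0119) and Ctsl. Calls over all genes fell as well, from 3655 of 12622 tested to 2649 of 12778.

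The CD8αα libraries of the 2 transfers were then set against each other. None of the 9 members was called by edgeR's quasi-likelihood test, 0 had an unadjusted p under 0.05, and DESeq2 called 0. Over all genes edgeR called 4.33%, 1.87% higher and 2.46% lower, and DESeq2 8.37%. The estimates were most precise for the abundant members. For CD8αα from CD4 minus CD8αα from CD8αβ the 95% interval of the log2 difference was -0.39 to 0.10 for Ctsc, -0.45 to 0.09 for Ctsw, -0.21 to 0.33 for Ctsd, -0.11 to 0.49 for Ctsa and -0.37 to 0.21 for Ctsb. For Ctsl it was -1.26 to 0.52 and for Ctsh -2.44 to 0.95, wide enough to hold a difference of more than 2-fold. The libraries of Ctsc and of Ctsw did not overlap between the groups, which was also so for 28.9% of all genes. Over all genes the split was 236 higher and 311 lower, and 314 higher and 223 lower by library totals. The interaction was called for 0 members by edgeR without a replicate block (3 at an unadjusted p under 0.05) against 2.56% of all genes, 1.2% higher and 1.35% lower. DESeq2 called it for 2, Ctsd and Ctsw, against 6.55% of all genes by that tool.

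In the test of any difference among the 4 groups, 7 of 9 members were called, against 52.2% of all genes. Ctsc had the smallest adjusted p (2.37e-07, edgeR), and Ctsz (0.142, edgeR) and Ctsh (0.0651, edgeR) were not called. Libraries of a CD8αα group and its companion did not overlap for 6 members in the CD4 transfer (45.7% of all genes) and for 4 in the CD8αβ transfer (43.8%). For the companions this was so for 5 members (41.5%).

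Correlations between members across the 12 libraries are given as a description over points that share groups and library composition. The log2 levels of Ctsc and Ctsd had r = 0.88, Ctsd and Ctsw r = 0.83, and Ctsc and Ctsw r = 0.73. Among the less abundant members Ctsh and Ctsl had r = 0.86, Ctsl and Ctss r = 0.75, and Ctsl and Ctsz r = 0.72, while Ctsa and Ctsb ran opposite at r = -0.69. Among 6310 genes above the median level, those most like Ctsc were Gpx8, Tmprss6 and Cd72, each at r = 0.99. For Ctsw they were Mrps35 (r = 0.98), Vps28 (r = 0.95) and Gnptg (r = 0.95), the last a subunit of the enzyme that makes the mannose 6-phosphate tag. Ctsd was most like Rnf181 (r = 0.97), 1110008F13Rik (r = 0.97) and Gem (r = 0.96), Ctsa most like Taz (r = 0.96), Efhd2 (r = 0.96) and Abhd15 (r = 0.95), and Ctsb most like Panx1 (r = 0.95), Scpep1 (r = 0.95) and Arhgdia (r = 0.94). Ctsl was most like Gusb (r = 0.94), Hint1 (r = 0.93) and Irf5 (r = 0.93), Ctss most like D17H6S56E-5 (r = 0.91), Trim30d (r = 0.91) and Oas1a (r = 0.90), and Ctsz most like Fkbp4 (r = 0.89), Mrps30 (r = 0.89) and Thap7 (r = 0.88). For Ctsh the first was Siglech (r = 0.95), followed by Acsl5 (r = 0.89).

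Of 13 other cathepsin genes in the table, 2 passed the filter. Ctse (chr1:131638306-131675503, ENSMUSG00000004552), an aspartic protease of endosomes, moved far more than any of the 9. CD4 IEL held 145, 121 and 180.2 CPM and CD8αβ IEL 228, 227 and 213 CPM, while CD8αα from CD4 held 4.95, 2.75 and 0.936 CPM and CD8αα from CD8αβ 1.87, 1.49 and 0.574 CPM. Ctse was 52.3-fold lower in CD8αα from CD4 (log2 difference -5.71 ± 0.39, edgeR adjusted p = 2.36e-07) and 164-fold lower in CD8αα from CD8αβ (-7.36 ± 0.42, edgeR adjusted p = 3.45e-08). Thus the related aspartic proteases Ctsd and Ctse ran opposite in the CD4 transfer. Ctso, a widely expressed cysteine cathepsin, was higher in CD8αα from CD4 (0.46, edgeR adjusted p = 0.0475) and not called in the CD8αβ transfer (0.40, edgeR adjusted p = 0.0761). Ctsg, the neutrophil and mast cell protease, was at 0 reads in all 12 libraries, as were the placental cathepsins Ctsj, Ctsm, Ctsq, Ctsr, Cts3, Cts6, Cts7 and Cts8. Ctsf had at most 6 reads and Ctsk, the osteoclast cathepsin, at most 7 reads in a library.

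Of 10 genes of cystatins and legumain in the table, 4 were tested. Of these, 3 were higher in the CD8αα libraries of the CD4 transfer and 2 in those of the CD8αβ transfer, and none was lower. Of all genes tested, 15% and 16.1% were called higher in these comparisons. Cst7 (chr2:150570415-150578944, ENSMUSG00000068129), cystatin F, is the cystatin of cytotoxic lymphocytes and is known to inhibit Ctsc in the granule. CD4 IEL held 120.2, 149 and 139.8 CPM and CD8αα from CD4 427, 541 and 599 CPM, a log2 difference of 1.94 ± 0.15 (edgeR adjusted p = 6.13e-07). CD8αβ IEL held 238, 247 and 239 CPM and CD8αα from CD8αβ 645, 695 and 813 CPM, a log2 difference of 1.57 ± 0.15 (edgeR adjusted p = 2.71e-06). Cst7 and Ctsc thus had the same order of groups, and for both no neighbouring groups overlapped. Neither was called between the CD8αα groups (Cst7 -0.46, edgeR adjusted p = 0.0924, and Ctsc -0.14, edgeR adjusted p = 0.542). Cst3 (chr2:148871722-148875692, ENSMUSG00000027447), the secreted cystatin C, was at 31.8, 30.2 and 45.9 CPM in CD4 IEL, 80.7, 106 and 119 CPM in CD8αα from CD4, 88.1, 132 and 84.9 CPM in CD8αβ IEL and 164, 195 and 179 CPM in CD8αα from CD8αβ. It was higher in both CD8αα groups (1.51, edgeR adjusted p = 1.66e-04, and 0.82, edgeR adjusted p = 0.00972). It was also the inhibitor called between the CD8αα groups (-0.81, edgeR adjusted p = 0.0488), a call lost in 13 of the 20 settings. Cstb, the cytoplasmic cystatin B, was higher in CD8αα from CD4 (1.17, edgeR adjusted p = 0.00467) and not called in the CD8αβ transfer (0.22, edgeR adjusted p = 0.567). Lgmn, the legumain that processes several cathepsins, was at 0.468 to 12.8 CPM and was called in neither (-1.77, edgeR adjusted p = 0.123, and -1.43, edgeR adjusted p = 0.198).

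**Figure D4:**
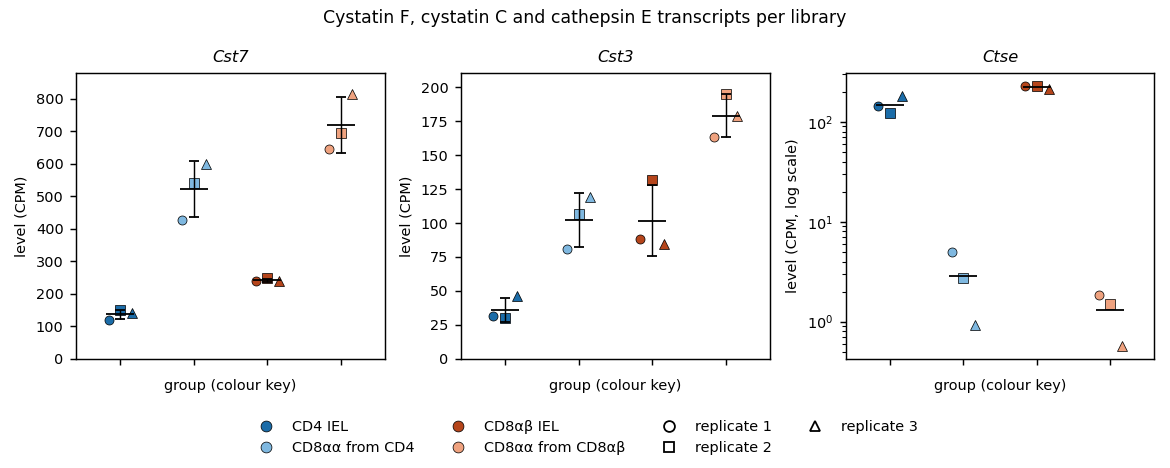
CPM of the inhibitors Cst7 and Cst3 (linear axes from 0, mean ± SD of 3 libraries) and of Ctse (log axis, bar at the mean) in the 4 groups, with colour giving the group and shape the replicate. Cst7 separates the 4 groups without overlap, and Ctse lies below 5 CPM in all 6 CD8αα libraries.

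The substrates and neighbours of these proteases were followed in lists chosen with earlier results of these data known. Their counts stand against 28.5% of all genes called in the CD4 transfer (15% higher, 13.5% lower) and 31.2% in the CD8αβ transfer (16.1% higher, 15.1% lower). Of 10 granule proteases and cargo genes tested, which Ctsc accompanies in lytic granules, 7 were higher and 1 lower in CD8αα from CD4, and 6 were higher and 2 lower in CD8αα from CD8αβ. Gzma, a granzyme that Ctsc activates, was higher by 3.64 (edgeR adjusted p = 1.46e-05) and 2.75 (edgeR adjusted p = 1.02e-04) on the log2 scale. Gzmc was higher by 4.68 (edgeR adjusted p = 1.60e-06) and 5.56 (edgeR adjusted p = 5.72e-07), and the pore-forming protein Prf1 by 2.91 in the CD4 transfer (edgeR adjusted p = 6.83e-07). Gzmk went the other way in the CD8αβ transfer (-4.56, edgeR adjusted p = 2.02e-08). The list's median log2 difference was 1.25 in the CD4 transfer and 0.52 in the CD8αβ transfer. Between the CD8αα groups 3 granule genes were called, against 4.33% of all genes, among them Prf1, higher in CD8αα from CD4 (1.02, edgeR adjusted p = 0.0180). Of 6 granule serpins tested, 3 were higher and 2 lower in the CD4 transfer and 4 higher and 0 lower in the CD8αβ transfer. Serpinb9, an inhibitor of granzyme B, was higher by 1.23 in CD8αα from CD4 (edgeR adjusted p = 1.95e-05).

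Lysosomal hydrolases were called in both directions. Of 39 lysosomal hydrolases, all tested, 14 were higher and 3 lower in CD8αα from CD4 (median 0.33), and 13 were higher and 5 lower in CD8αα from CD8αβ (median 0.42), against 28.5% and 31.2% of all genes called and all-gene medians of 0.02 and -0.003. Hexa, the α subunit of β-hexosaminidase, was higher by 1.92 (edgeR adjusted p = 4.68e-05) and 2.61 (edgeR adjusted p = 2.96e-06), and the α-glucosidase Gaa by 2.20 in the CD8αβ transfer (edgeR adjusted p = 5.64e-07). Gm2a, the activator that presents ganglioside to Hexa, was lower in the CD4 transfer (-1.86, edgeR adjusted p = 3.04e-05). Between the CD8αα groups 1 of the 39 was called, against 4.33% of all genes. This was Neu1, the neuraminidase that Ctsa protects, lower in CD8αα from CD4 (-0.73, edgeR adjusted p = 0.0316). Of 28 genes of the lysosomal membrane and its proton pump, 9 were higher and 0 lower in the CD4 transfer, and 6 higher and 2 lower in the CD8αβ transfer. Of all genes, 15% were called higher and 13.5% lower in the CD4 transfer, and 16.1% higher and 15.1% lower in the CD8αβ transfer. The tetraspanin Cd63 was higher by 4.01 (edgeR adjusted p = 7.14e-06) and 5.01 (edgeR adjusted p = 7.99e-07), and the pump subunit Atp6v0a2 by 1.30 in the CD8αβ transfer (edgeR adjusted p = 6.05e-06). Cd68, also a myeloid marker, was lower there (-2.18, edgeR adjusted p = 1.13e-04).

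Of 16 genes of enzyme sorting and the TFEB family, 3 were higher and 2 lower in the CD4 transfer and 3 higher and 0 lower in the CD8αβ transfer, near or under the share of all genes called. Gnptab, which makes the sorting tag that carries cathepsins to the lysosome, was higher in CD8αα from CD4 (1.30, edgeR adjusted p = 0.00153). The TFEB relative Tfe3 was lower there (-1.04, edgeR adjusted p = 0.00603), as was Grn, the lysosomal progranulin (-1.66, edgeR adjusted p = 0.00660). Gnptg, whose profile was close to that of Ctsw, was lower in CD4 IEL than in CD8αβ IEL (-0.48, edgeR adjusted p = 0.00653). Of 11 genes of MHC class II antigen processing, the setting in which Ctss acts, 5 were higher and 0 lower in CD8αα from CD4, and 2 were higher and 6 lower in CD8αα from CD8αβ. Cd74 was lower in CD8αα from CD8αβ (-1.96, edgeR adjusted p = 0.00188). The summed class II genes were 195 to 279 CPM in CD4 IEL, 385 to 643 CPM in CD8αα from CD4, 474 to 1252 CPM in CD8αβ IEL and 255 to 437 CPM in CD8αα from CD8αβ. Ctss did not pass the test in either of these comparisons, with log2 differences of 0.20 (edgeR adjusted p = 0.620) and -0.43 (edgeR adjusted p = 0.250).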

How the data were processed

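The authors deposited raw counts of reads per gene, as whole numbers, for 12 libraries. The aligner was HISAT2 2.1.0 and the genome mm10, per the submitters' processing notes; for the counting program, its annotation and its strand setting the sources used here give nothing. The table had 25965 lines; where lines shared a symbol the one with most reads was kept, which left out 66 lines with 0.0202% of the reads. Identifiers of 24986 lines matched GENCODE, and for 99.9% of these the start-to-end spans overlapped, though not always with equal ends. The function filterByExpr (minimum count 10, minimum total 15) kept 12622 genes. Counts were TMM-scaled and tested, two-sided, with edgeR 4.0.16 in R 4.3.3 in a single model of 4 group means. SE is the absolute log2 difference over the square root of F. TPM used union exon lengths. DESeq2 1.42.0 was an alternative, and the test was checked on simulated data. There, for CD8αα from CD4 against CD4 IEL, 67 genes were changed 1.5-fold, 67 2-fold and 66 4-fold. Of these 5.97%, 41.8% and 86.4% were recovered, and 3.26% of calls were false. Fewer genes changed there than were called in the data, so these shares need not hold for the members. A member not called is thus not shown to be unchanged. Floors cover counting error only. Between replicates, chi-square per gene was 11.4 to 60.2 over genes with at least 20 reads, so no library was a repeat of another. Members and gene lists were chosen with earlier results of these data known. All 9 members are named, and from each other list up to 3 called genes per comparison with the largest log2 change at 10 CPM or more, with all tested cystatins and Lgmn. The 3 genes most like a member were taken by Pearson r over log2 CPM, of which 1 is not reported here. Alternatives were DESeq2, scaling by library totals, no filter, only the groups compared, a replicate block, leaving out each library, only Y-linked CD8αα libraries and, added after seeing the data, only Xist CD8αα libraries.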

Additional observations from a re-analysis of the deposited data

How the results depend on the processing

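Of 891 values of the 9 members under the alternatives, 824 kept their direction and their side of the threshold, 33 lost and 18 gained a call, and 16 reversed. Of 396 values of Ctse, Cst7, Cst3 and Cstb, 369 kept both, 15 lost and 9 gained a call, and 3 reversed. The cause was not tested unless stated. The number of members called in CD8αα from CD8αβ against CD8αβ IEL was 5 without replicate 1 of CD8αβ IEL (adding Ctsd at 0.39 and Ctss at -0.71) and 1 with only Y-linked libraries, which leave 1 library in each CD8αα group. In CD4 IEL against CD8αβ IEL it was 3 without replicate 2 of CD8αβ IEL, and in CD8αα from CD4 against CD4 IEL 6 without that library. Calls over all genes moved from 3655 to 2649 and from 3597 to 3913 in these comparisons without it. For the interaction the number of members called was 2 with DESeq2 and 1 with a replicate block (Ctsw). Leaving out 1 library at a time gave 3 to 6, 2 to 5, 0 to 0, 3 to 7 and 0 to 0 called members for the CD4 transfer, the CD8αβ transfer, the CD8αα groups, the companions and the interaction.

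None of the reversed values had been called. In the CD4 transfer Ctsh was -0.082 by library totals, -0.0050 without the filter and -0.016 with only the groups compared, and ran from -0.47 to 0.34 when 1 library was left out, below 0 without replicate 3 of CD4 IEL (-0.47), replicate 2 of CD8αα from CD4 (-0.27) or replicate 3 of CD8αβ IEL (-0.0060). In the CD8αβ transfer the ranges leaving out 1 library were -2.05 to 0.039 for Ctsh, -1.18 to 0.081 for Ctsl and -0.39 to 0.19 for Ctsz, each above 0 only without replicate 2 of CD8αβ IEL, and -0.0058 to 0.43 for Cstb, below 0 without replicate 3 of CD8αβ IEL. Ctsz was 0.060 with Y-linked libraries. Between the CD8αα groups Ctsb was 0.0075 by library totals, Ctsd -0.031 (without replicate 2 of CD8αα from CD4) to 0.12 leaving out 1 library and -0.074 with Y-linked libraries, and Ctse -0.66 with Y-linked libraries. The interaction ran from -0.019 to 0.24 for Ctsb, -0.020 to 2.06 for Ctsh and -0.050 to 0.51 for Ctsz, each lowest without replicate 2 of CD8αβ IEL, and was -0.082 for Ctse with Y-linked libraries.

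Calls over all genes moved by more than 1.5 times between the CD8αα groups, from 547 to 1033 (DESeq2), 959 (only those groups), 141 (Xist), 1 (Y-linked) and 166 to 714 leaving out 1 library. For the interaction they moved from 323 to 809 (DESeq2), 109 (Xist), 13 (Y-linked) and 147 to 368. With Y-linked libraries they fell from 3597 to 1280 in the CD4 transfer and from 3939 to 1421 in the CD8αβ transfer. Deviations of same-numbered libraries had correlations of -0.07 to 0.38 (mean 0.058), over 0.1 in 4 of 18 pairs. Pairs with other numbers were over 0.1 in 2 of 36 (mean -0.029). The labels give nothing shared by libraries of a number, so numbers were not taken as pairs and the replicate block is only an alternative. Yet 9 of 12 libraries correlated best with one of their own number, a hint from the data that numbers matter, which the labels do not explain. Ctsh had 6 to 508 reads in a library, and whether depth limits its test was not tested.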
